A study of Homo sapiens with 12 samples.

Results

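MHC class I molecules display short peptides from inside the cell to CD8+ T cells. Each is made of 1 heavy chain and the invariant chain beta-2 microglobulin, without which most heavy chains do not reach the cell surface. HLA-B and HLA-C are classical heavy chains, which vary greatly between people and present peptides to T cells, and HLA-C is also read by receptors of natural killer cells. HLA-E, HLA-F and HLA-G are non-classical and vary little. Many tumours lower class I, and NF-κB and interferon are known to raise its transcription.

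This account follows the mRNA of 6 genes, HLA-B, HLA-C, HLA-E, HLA-F, HLA-G and B2M, of the 62696 gene identifiers in the count tables. They were chosen by name, and each matched 1 identifier on a primary chromosome. The samples are polyA RNA-seq libraries of SKBR3 and MDA-MB-453, which are established human breast cancer lines of the HER2 subtype. Each line has 3 untreated libraries and 3 from cells given TWEAK, a cytokine of the TNF family that signals through the receptor Fn14, at 10 ng/ml for 48 h with a fresh dose at 24 h. According to the growth protocol, which is the same for every sample, cells grew for 24 h in DMEM with 10% FBS and then spent 8 h in Opti-MEM without serum. It does not say whether untreated cells received a medium change at 24 h. Each line is 1 cell population. The labels do not say how the replicates were made, and the study's methods describe them as biological replicates, from experiments repeated on separate days.

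Total counts ran from 24842722 to 28647209 per library in SKBR3 and from 24773003 to 35208304 in MDA-MB-453. Replicate 2 of the TWEAK group stood apart in both lines. Counts of SKBR3 TWEAK replicates 1 and 3 differed with a chi-square of 2.09 per degree of freedom, against 18.7 and 21.1 for the pairs with replicate 2, and in MDA-MB-453 the values were 2.67 against 9.20 and 4.85. Changes of the members and counts of called genes are therefore also given without these libraries. The epithelial and HER2 markers ERBB2, GRB7, KRT8, KRT18, KRT19 and EPCAM were all present in both lines, with ERBB2 at 7578 ± 285 CPM, the count scaled to a common library size, in untreated SKBR3 and 891 ± 16.1 CPM in untreated MDA-MB-453 (SD, n = 3). Of these, KRT19 rose in SKBR3 (log2 fold change 0.32 ± 0.09, SE, edgeR adjusted p = 0.0608), a call lost without untreated replicate 1 (0.227) or 2 (0.247) and with a replicate block (0.105). Without TWEAK replicate 2, GRB7 and EPCAM fell in SKBR3 beside the rise of KRT19, and KRT8 and KRT18 rose in MDA-MB-453. In bulk libraries fewer cells with a transcript and less of it per cell cannot be told apart.

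HLA-B (ENSG00000234745) lies on the minus strand of chromosome 6 (hg38, chr6:31353872-31367067), as does HLA-C (ENSG00000204525, chr6:31268749-31272130). HLA-E (ENSG00000204592, chr6:30489509-30494194), HLA-F (ENSG00000204642, chr6:29722775-29738528) and HLA-G (ENSG00000204632, chr6:29826967-29831125) lie on its plus strand, and B2M (ENSG00000166710) lies on the plus strand of chromosome 15 (chr15:44711358-44718851). All are protein-coding. Of the exon bases of HLA-B, 32.7% also lie in DHFRP2 or MIR6891 on the same strand, where counts can be lost, and 14.8% of those of HLA-B, 28.0% of HLA-F and 25.8% of HLA-G lie under genes of the opposite strand. Within the canonical transcripts, 0.0% of HLA-B lay under a gene of the same strand. There the opposite-strand shares were 23.7% for HLA-B, 42.0% for HLA-F and 27.5% for HLA-G. The part of these overlaps in the levels per kb was not tested. Promoter windows of 300 bases around the annotated start, from RefSeq on GRCh38.p14, were found for 5 of the 6 genes, all but HLA-E. Those of B2M, HLA-B, HLA-C and HLA-F are shown because these are the genes whose levels moved with TWEAK in at least 1 line, and genes of the NF-κB and IRF families are described further on. The choice thus follows the change with TWEAK. No window was available for HLA-E, the tested member that was called in neither line with all libraries. Capitals mark matches on either strand to the NF-κB consensus and to the core of the interferon-stimulated response element (ISRE), searched as GAAA, any 2 bases and GAAA again.
B2M, chr15:44711267-44711566, plus strand: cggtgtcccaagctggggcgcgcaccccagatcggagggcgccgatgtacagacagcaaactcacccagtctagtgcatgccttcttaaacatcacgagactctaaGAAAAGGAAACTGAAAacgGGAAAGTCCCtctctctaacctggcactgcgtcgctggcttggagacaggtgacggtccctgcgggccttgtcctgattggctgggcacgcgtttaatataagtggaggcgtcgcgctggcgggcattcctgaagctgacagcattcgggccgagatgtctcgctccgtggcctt
HLA-B, chr6:31357130-31357429, minus strand: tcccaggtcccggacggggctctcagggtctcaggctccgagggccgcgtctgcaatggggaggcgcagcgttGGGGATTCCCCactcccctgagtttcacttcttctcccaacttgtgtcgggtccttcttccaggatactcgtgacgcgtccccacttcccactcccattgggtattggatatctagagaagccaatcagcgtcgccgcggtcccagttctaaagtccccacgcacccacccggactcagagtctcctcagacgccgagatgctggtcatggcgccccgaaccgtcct
HLA-C, chr6:31272043-31272342, minus strand: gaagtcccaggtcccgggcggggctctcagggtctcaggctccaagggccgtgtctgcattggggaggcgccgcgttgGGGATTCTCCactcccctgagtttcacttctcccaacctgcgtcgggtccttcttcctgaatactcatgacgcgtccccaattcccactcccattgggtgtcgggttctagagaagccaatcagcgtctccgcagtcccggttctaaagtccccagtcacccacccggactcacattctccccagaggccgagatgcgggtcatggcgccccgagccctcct
HLA-F, chr6:29723184-29723483, plus strand: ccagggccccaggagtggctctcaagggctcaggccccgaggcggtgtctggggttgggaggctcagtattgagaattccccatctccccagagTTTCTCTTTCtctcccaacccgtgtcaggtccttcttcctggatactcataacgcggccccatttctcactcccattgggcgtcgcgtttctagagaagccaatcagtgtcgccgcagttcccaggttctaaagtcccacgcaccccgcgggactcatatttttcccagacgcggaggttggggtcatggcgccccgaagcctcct

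The NF-κB consensus was matched in B2M, HLA-B and HLA-C and not in HLA-F. In HLA-B its 4 matches are overlapping readings of a single stretch at position -177 from the start, on both strands. The stretch in HLA-C begins at -172 and that in B2M, on the opposite strand of the window, at -125. A match stood in 11.3% of the 35116 promoter windows of this length. The ISRE core was matched in B2M, with 2 overlapping matches from -144, and in HLA-F at -156, against 3.57% of all windows. HLA-B and HLA-C had no match to this exact pattern, which misses variant forms of the element. CCAAT, the box bound by NF-Y, was found in all 4 windows (34.6% of all windows), and TGACG, a half-site for CREB and ATF1, in B2M, HLA-B and HLA-C (24.6% of all windows). HLA-G has 3 windows, of which only the third held matches, 2 to the NF-κB consensus and 1 to CCAAT. These matches describe letters in the reference and not binding. A window without a match may still hold a variant of the element.

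B2M was the most abundant of the 6 genes per kilobase of exon in all 4 groups, but the heavy chain beneath it differed between the lines. In untreated SKBR3 it was HLA-E, at 28.7 ± 1.99 CPM per kb (SD, n = 3), with HLA-B at 0.370 ± 0.036, HLA-C at 0.259 ± 0.051 and HLA-F at 0.0283 ± 0.0197. In untreated MDA-MB-453 it was HLA-C, at 89.5 ± 3.73 CPM per kb, with HLA-E at 6.79 ± 0.246, HLA-B at 2.02 ± 0.238 and HLA-F at 0.287 ± 0.037. The level of B2M was 58.7 ± 1.14 CPM per kb in untreated SKBR3 and 96.9 ± 6.20 in untreated MDA-MB-453, so that HLA-C and B2M stood at similar levels in the latter line. With the canonical transcript as the length, B2M stood higher there, at 321 ± 20.5 against 146 ± 6.06 for HLA-C. Among 17198 genes ranked by level per kb, HLA-C was above 16.5% of genes in untreated SKBR3 and above 98% in untreated MDA-MB-453, while HLA-E was above 91.3% and 67.5%.

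Expressed as shares of the summed level of the 5 heavy chains listed here, HLA-E made up 98.0%, 97.6% and 97.6% in the 3 untreated SKBR3 libraries. HLA-C made up 90.6%, 90.6% and 91.1% in those of untreated MDA-MB-453. The share of HLA-B was higher with TWEAK in each line, without overlap. It was 1.22%, 1.27% and 1.29% in untreated SKBR3 and 3.16%, 3.62% and 3.14% with TWEAK. In MDA-MB-453 it was 2.21%, 1.88% and 2.03% untreated and 6.12%, 5.09% and 5.05% with TWEAK. The shares carry no test, and they depend on the gene length used: by canonical transcript length the mean share of HLA-B was 3.22% and 8.15% for SKBR3 and 3.78% and 9.73% for MDA-MB-453. The order HLA-B above HLA-E in TWEAK-treated MDA-MB-453 holds for the canonical length (20.4 ± 3.75 against 9.03 ± 0.714 CPM per kb) and is turned by total exon length (6.78 ± 1.25 against 7.87 ± 0.623).

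**Figure D1:**
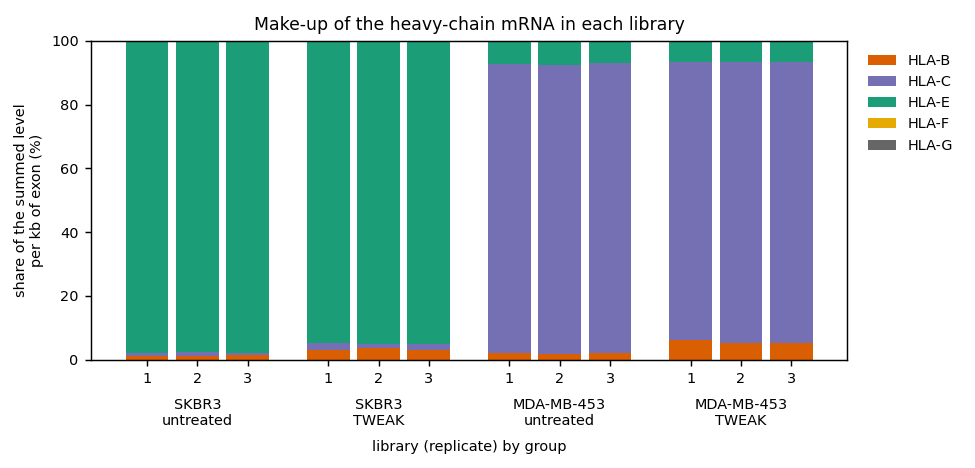
Share of each of the 5 heavy chains in their summed level per kb of exon (percent, vertical axis) in each of the 12 libraries, grouped by line and treatment. HLA-E fills 94.4% or more of every SKBR3 bar and HLA-C 87.1% or more of every MDA-MB-453 bar. HLA-F and HLA-G are too low to be seen.

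Levels of single genes follow as CPM, scaled by TMM over all 12 libraries. HLA-B was at 1.58, 1.66 and 1.90 CPM in untreated SKBR3 and at 5.06, 6.38 and 4.93 with TWEAK, from 40 to 46 and from 118 to 159 reads. In MDA-MB-453 it was at 10.4, 8.21 and 9.36 CPM untreated and at 37.8, 26.8 and 29.4 with TWEAK. Treated libraries lay above all untreated ones in both lines, as they did for 14.4% of tested genes in SKBR3 and 8.19% of those in MDA-MB-453, and the highest SKBR3 library lay below the lowest of MDA-MB-453. HLA-B rose 3.18-fold in SKBR3 (log2 fold change 1.67 ± 0.16, SE, edgeR adjusted p = 6.36e-05) and 3.35-fold in MDA-MB-453 (1.74 ± 0.12, adjusted p = 1.25e-06). By size of change it ranked 144 among the 1034 genes that rose in SKBR3 and 17 among the 192 of MDA-MB-453. Without TWEAK replicate 2 the changes were 1.54 and 1.83. The change did not differ detectably between lines (difference, MDA-MB-453 minus SKBR3, 0.07 ± 0.25, adjusted p = 0.986).

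HLA-C had few reads in SKBR3. It was counted 14, 17 and 18 times in the untreated libraries and 45, 34 and 37 times with TWEAK, which is 0.503, 0.704 and 0.743 CPM against 1.82, 1.36 and 1.55 CPM. In MDA-MB-453 it was at 232, 214 and 228 CPM untreated and at 292, 251 and 279 CPM with TWEAK. Every treated library exceeded every untreated one of its line. The rise was 2.43-fold in SKBR3 (log2 1.28 ± 0.24, edgeR adjusted p = 0.00627) and 1.22-fold in MDA-MB-453 (0.29 ± 0.05, adjusted p = 0.00854). The second call was lost without untreated MDA-MB-453 replicate 2 (0.25, adjusted p = 0.116). Without TWEAK replicate 2 the changes were 1.38 and 0.34.

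Of the 4 members tested in SKBR3, HLA-C alone was called for a difference in change between the lines. HLA-F entered this comparison only through its reads in MDA-MB-453, so its value of -0.56 ± 0.52 is a description. The interaction of HLA-C was -0.998 ± 0.224 (edgeR adjusted p = 0.0207, over all 12 libraries), a smaller fold in the line with the higher level. Without TWEAK replicate 2 of SKBR3 or of MDA-MB-453 it was -1.08 (0.0117) or -0.94 (0.02). It was not called without untreated SKBR3 replicate 1, the library with the lowest HLA-C (-0.83, adjusted p = 0.125). Differences between lines of this kind were called for 3.37% of 17201 genes. On the linear scale the group means were 224 ± 9.34 and 274 ± 20.8 CPM in MDA-MB-453 and 0.650 ± 0.129 and 1.58 ± 0.230 CPM in SKBR3 (SD, n = 3), so the difference in CPM was larger where the fold was smaller.

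HLA-E, whose product carries leader peptides of other class I chains and is a ligand of the inhibitory receptor NKG2A on natural killer cells, moved least. It was at 80.6, 80.6 and 90.7 CPM in untreated SKBR3 and at 95.5, 106 and 94.0 CPM with TWEAK. In MDA-MB-453 it was at 20.5, 20.0 and 19.1 CPM untreated and at 24.7, 21.1 and 23.2 CPM with TWEAK. The treated libraries again lay above the untreated ones of their line. The log2 fold changes of 0.22 ± 0.07 (edgeR adjusted p = 0.111) and 0.21 ± 0.06 (0.21) did not pass the threshold of 0.1. They passed without TWEAK replicate 2 (0.17, adjusted p = 0.0424 in SKBR3, and 0.27, adjusted p = 0.00707 in MDA-MB-453), and in SKBR3 also without untreated replicate 3 (0.29, adjusted p = 0.0813). A replicate block also called HLA-E in MDA-MB-453 (0.21, edgeR adjusted p = 0.0402). Other settings that changed its call follow under the processing.

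HLA-F was rare. It had 1, 3 and 5 reads in untreated SKBR3 and 11, 7 and 8 with TWEAK, too few for the filter, so it was not tested in that line. The ratio of the summed reads, 26 to 9, corrected for library size, was 2.99 (exact 95% interval 1.36 to 7.25, counting error only). In MDA-MB-453 it was at 1.30, 1.06 and 1.36 CPM untreated and at 2.66, 2.20 and 2.48 CPM with TWEAK. It rose 1.97-fold there (log2 0.98 ± 0.17, edgeR adjusted p = 0.00668), and without TWEAK replicate 2 the change was 1.04.

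HLA-G, known mainly from the placenta, was not detectable at this depth in 10 of the 12 libraries. A single read was counted in untreated SKBR3 replicate 2 and in TWEAK-treated MDA-MB-453 replicate 3. A count of 0 allows up to 3 reads, or between 0.108 and 0.125 CPM depending on the library, which again covers counting error only.

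B2M, the chain shared by all of them, was at 179, 185 and 185 CPM in untreated SKBR3 and at 266, 284 and 255 CPM with TWEAK. In MDA-MB-453 it was at 306, 282 and 320 CPM untreated and at 472, 397 and 441 CPM with TWEAK. The groups did not overlap within either line, whereas TWEAK-treated SKBR3 and untreated MDA-MB-453 did. B2M rose 1.46-fold in SKBR3 (log2 0.54 ± 0.06, edgeR adjusted p = 0.000194) and 1.44-fold in MDA-MB-453 (0.53 ± 0.06, adjusted p = 0.00014). Without TWEAK replicate 2 the changes were 0.50 and 0.59. The difference between lines was -0.02 ± 0.09 (adjusted p = 0.992).

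**Figure D2:**
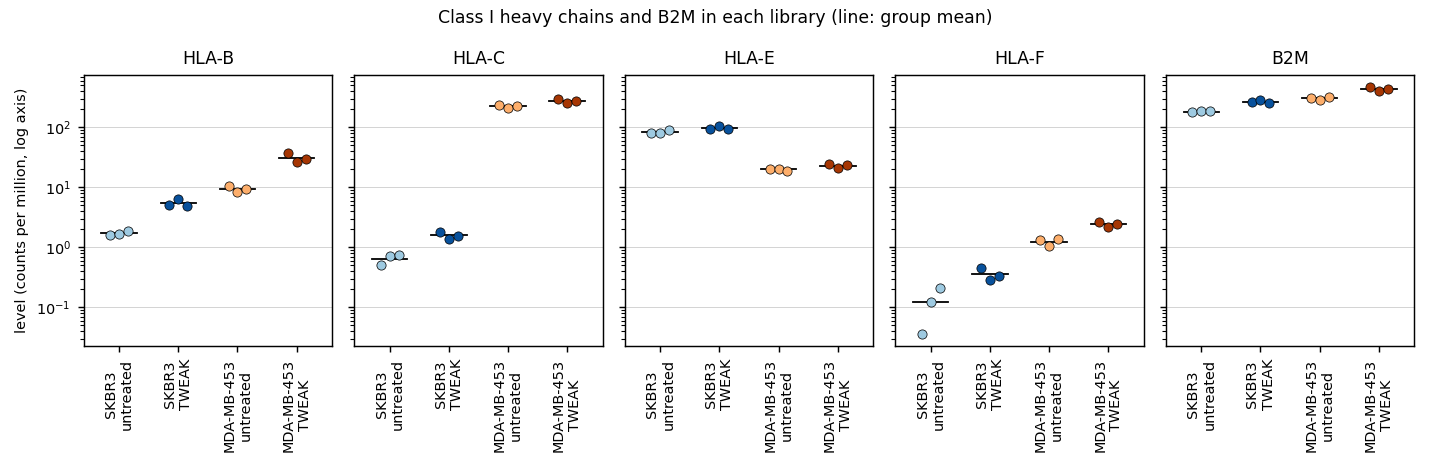
Levels of HLA-B, HLA-C, HLA-E, HLA-F and B2M in each library, in CPM on a log axis, with 1 point per library and a line at the group mean (n = 3). HLA-C in MDA-MB-453 lies at 214 to 292 CPM and in SKBR3 at 0.503 to 1.82 CPM, while HLA-E is higher in SKBR3.

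Set against all genes, 3 of the 4 members tested in SKBR3 rose and none fell, where 6.6% of 15661 genes rose and 3.82% fell. In MDA-MB-453 4 of the 5 tested rose and none fell, where 1.29% of 14929 genes rose and 0.208% fell. These shares move with TWEAK replicate 2. Without it 9.93% of genes rose and 7.45% fell in SKBR3, where all 4 tested members rose, and 6.59% rose and 7.22% fell in MDA-MB-453, where all 5 did. The median log2 fold change of the tested members was 0.91 for SKBR3 and 0.53 for MDA-MB-453, against -0.007 and 0.002 over all tested genes. HLA-G passed the filter in neither line. Relative to the summed heavy chains, B2M per kb of exon was 2.04, 2.10 and 1.87 times as high in untreated SKBR3 and 2.46, 2.39 and 2.41 times with TWEAK. In MDA-MB-453 the ratio was 0.962, 0.958 and 1.03 untreated and 1.13, 1.12 and 1.12 with TWEAK. Both lines thus held more B2M per heavy-chain transcript of this set after TWEAK, without overlap of the groups. The level of the ratio depends on the length used: by canonical transcript length its mean in SKBR3 was 5.64 untreated and 6.55 with TWEAK, and 2.002 and 2.22 for MDA-MB-453. The ratio covers only the 5 heavy chains listed, and no test was run on it.

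**Figure D3:**
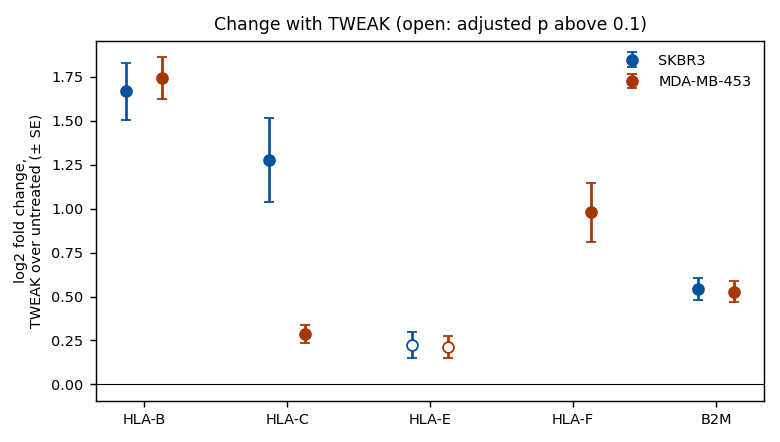
Log2 fold change with TWEAK over untreated for each member in SKBR3 and MDA-MB-453, with bars for the standard error of the edgeR fit (3 against 3 libraries). Open points did not pass an adjusted p of 0.1. HLA-B and B2M lie at the same height in both lines within their errors, and HLA-C at 1.28 in SKBR3 and 0.29 in MDA-MB-453.

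Between untreated lines, MDA-MB-453 had more HLA-C (log2 difference 8.43 ± 0.09), HLA-B (2.44 ± 0.14) and B2M (0.72 ± 0.04) and less HLA-E (-2.09 ± 0.06, SE, edgeR adjusted p between 1.16e-30 for HLA-C and 2.19e-14 for B2M). With TWEAK the differences were 7.44 ± 0.11, 2.53 ± 0.15, 0.71 ± 0.07 and -2.09 ± 0.08 in the same order. HLA-F entered this comparison only through its reads in MDA-MB-453, so its fitted differences of 3.33 untreated and 2.78 with TWEAK are a description, and the first ran from 2.86 to 3.92 when single libraries were left out. A difference was called for 87.2% of genes between the untreated lines and for 83.3% between the treated ones, so a call alone says little about these genes. Reads were mapped to hg38, whether with its alternate HLA sequences is not given in the sources used here, and the alleles of the lines were not analysed, so a lower level and a poorer match of an allele cannot be told apart in comparisons between lines. Of all stretches of 100 bases in the canonical transcripts, 0% for HLA-B, 0.3% for HLA-C, 0.6% for HLA-E, 0% for HLA-F, 1.2% for HLA-G and 0% for B2M also stood in a transcript of another gene. This check used reference sequences and does not cover the lines' own alleles. It therefore does not settle the origin of the few HLA-C reads of SKBR3, on which its change there and its interaction rest.

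Peptides reach class I through the immunoproteasome, the TAP transporter, the tapasin editors and the trimming peptidases ERAP1 and ERAP2. Of 14 genes of this route, 11 rose in SKBR3 and 8 in MDA-MB-453, all 8 of which rose in both lines, and none fell, against 6.6% and 1.29% of all tested genes that rose. The counts without TWEAK replicate 2 were 11 and 10, with TAPBP and TAPBPL added in MDA-MB-453. At that setting 9.93% and 6.59% of all tested genes rose. The median log2 fold change was 1.04 and 0.33. The immunoproteasome subunit PSMB9 rose by 3.70 ± 0.21 in SKBR3 (SE, edgeR adjusted p = 8.66e-07), from 0.526 ± 0.166 to 6.88 ± 0.797 CPM (SD, n = 3), and by 1.31 ± 0.15 in MDA-MB-453 (0.000209). PSMB9 had at most 17 reads per library in untreated SKBR3 and passed the filter in that line through its treated libraries. Its fold there is a description, and it is counted among the 11. PSMB8, its partner subunit, rose by 1.30 (3.24e-05) and 0.49 (0.0209), and PSMB10 by 0.84 (0.00242) and 0.68 (0.002). The proteasome activator subunits PSME1 and PSME2 rose by 0.49 and 0.61 in SKBR3 and by 0.26 and 0.33 in MDA-MB-453. These subunits produce peptides suited to class I.

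The transporter subunit TAP1 rose from 23.6 ± 0.607 to 81.5 ± 3.31 CPM in SKBR3 (log2 1.79 ± 0.07, edgeR adjusted p = 5.89e-08) and from 23.1 ± 0.630 to 35.2 ± 0.978 in MDA-MB-453 (0.60 ± 0.05, 9.43e-06). Its partner TAP2 rose in SKBR3 (0.78, 0.0173) and was at 0.68 in MDA-MB-453 (0.349). TAPBP, which is tapasin, and its relative TAPBPL rose in SKBR3, by 1.48 (1.71e-06) and 1.26 (0.0182), and were at 0.23 (0.247) and 0.22 (0.376) in MDA-MB-453. ERAP1 rose by 1.23 and 0.33 and ERAP2 by 1.48 and 0.71. In untreated SKBR3 ERAP2 had at most 13 reads per library. It passed the filter in that line through its treated libraries, so its fold there is a description, and it is counted among the 11. The general chaperones CALR, CANX and PDIA3 passed the test in neither line, with values from 0.00 to 0.11 in SKBR3. In MDA-MB-453 the calls of PSMB8 and PSME1 were lost without untreated replicate 2 (adjusted p = 0.193 and 0.401) or TWEAK replicate 3 (0.175 and 0.266), that of PSME1 also without untreated replicate 3 (0.333), and those of PSME1 and PSME2 with all 12 libraries in one fit (0.316 and 0.103). The call of ERAP2 in SKBR3 was lost without untreated replicate 1 (0.111).

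The change was smaller in MDA-MB-453 than in SKBR3 for 6 of the 14 by the interaction test, and larger for none, where it was smaller for 2.36% of all tested genes. With TWEAK replicate 2 of SKBR3 or of MDA-MB-453 left out, 7 or 5 were called, all smaller, where 3.67% or 2.07% of all tested genes were. The 6 called with all libraries were PSMB9 (-2.39 ± 0.28, edgeR adjusted p = 6.05e-05), TAPBP (-1.25 ± 0.12, 1.01e-05), TAP1 (-1.18 ± 0.08, 8.89e-08), TAPBPL (-1.05 ± 0.28, 0.0566), ERAP1 (-0.91 ± 0.11, 9.29e-05) and PSMB8 (-0.83 ± 0.16, 0.00713). The value of PSMB9 rests on few reads in untreated SKBR3. By this test HLA-C fell on the same side, and HLA-B and B2M were not called. The TAPBPL call was lost without any of 7 libraries (adjusted p from 0.102 to 0.192).

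**Figure D4:**
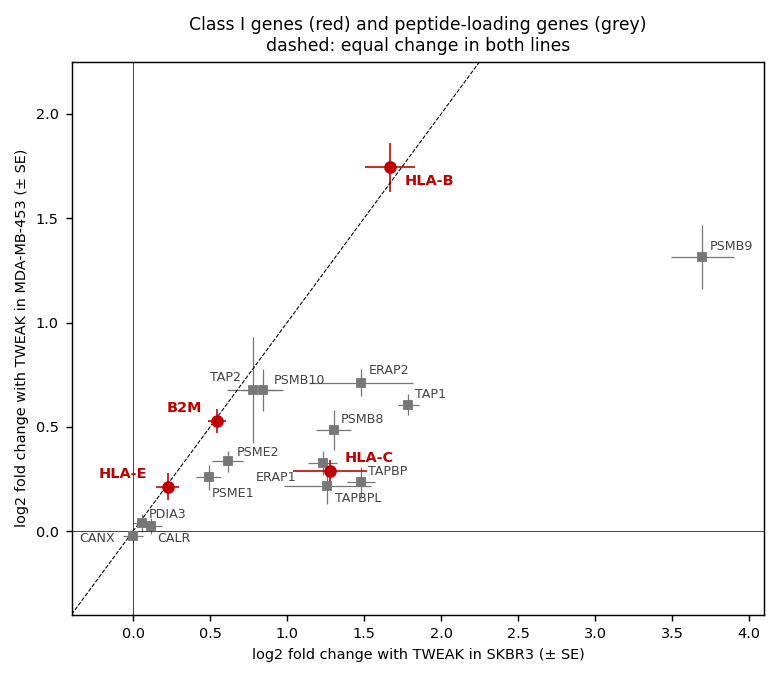
Log2 fold change with TWEAK in SKBR3 (horizontal axis) and MDA-MB-453 (vertical axis) for 4 class I genes (red) and 14 peptide-loading genes (grey), with standard errors. The dashed line marks equal change. HLA-B, HLA-E and B2M lie on it within their errors, and HLA-C, PSMB9, TAP1 and TAPBP lie below it.

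Among 18 regulators of class I transcription, 5 rose and 1 fell in SKBR3 and 4 rose in MDA-MB-453, with medians of 0.11 and 0.04. Of all tested genes, 6.6% rose and 3.82% fell in SKBR3 and 1.29% rose in MDA-MB-453. Leaving out TWEAK replicate 2, 7 rose and 1 fell in SKBR3 and 5 rose and 1 fell in MDA-MB-453. At that setting 9.93% of all tested genes rose and 7.45% fell in SKBR3, and 6.59% rose and 7.22% fell in MDA-MB-453. Called in both lines were NFKB2 and RELB, which form the non-canonical NF-κB dimer, and IRF1, which binds the ISRE. NFKB2 rose from 67.3 ± 2.92 to 234 ± 16.9 CPM in SKBR3 (log2 1.79 ± 0.07, edgeR adjusted p = 9.34e-08) and in MDA-MB-453 from 25.1 ± 0.869 to 80.2 ± 3.97 CPM (1.67 ± 0.05, 3.01e-10). RELB rose by 1.44 ± 0.12 in SKBR3 and by 2.75 ± 0.14 in MDA-MB-453, and this difference passed the interaction test (1.30 ± 0.21, 0.00158). IRF1 rose by 1.09 ± 0.10 and 1.22 ± 0.10.

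NLRC5, the transactivator that drives class I promoters, rose in MDA-MB-453 from 7.31 ± 0.568 to 11.5 ± 0.045 CPM (0.65 ± 0.08, edgeR adjusted p = 0.000259). In SKBR3 it was at 0.708 ± 0.123 and 1.15 ± 0.218 CPM (0.70 ± 0.25, 0.142), and the difference between lines was -0.05 ± 0.23 (0.998). IRF2 (0.47, 0.00223) and NFKB1 (0.47, 0.000986) rose in SKBR3, with interactions of -0.32 (0.0682, lost without any of 10 libraries, with no filter and with a replicate block) and -0.36 (0.0147). NFYB, a subunit of NF-Y, fell there by 0.26 (0.0455), a call lost without untreated replicate 1 or 2 or TWEAK replicate 1 (adjusted p up to 0.245) and with a replicate block (0.13). NFYB was named after its values were seen. RELA, REL, the RFX complex, CREB1, ATF1, NFYA, NFYC, USF1 and USF2 did not pass in either line with all libraries.

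The interferon list held 7 ligands, none of which passed the filter. IFNL1 had the highest count, 17 reads, in a TWEAK-treated MDA-MB-453 library. Of the 6 genes of the list tested in SKBR3, 2 rose and 1 fell, against 6.6% and 3.82% of all tested genes. Among the receptors, IFNGR1 rose in SKBR3 from 34.1 ± 0.231 to 68.6 ± 2.39 CPM (log2 1.002 ± 0.06, edgeR adjusted p = 2.46e-06) and IFNGR2 by 0.70 ± 0.09 (0.000359), while IFNLR1 fell by 1.11 ± 0.13 (0.000331). In MDA-MB-453 IFNGR1 and IFNGR2 were at 0.18 (0.243) and 0.11 (0.685), with interactions of -0.83 ± 0.08 (1.36e-05) and -0.60 ± 0.12 (0.00897). No gene of this list was called in MDA-MB-453 by edgeR or DESeq2, and 2 had an unadjusted p under 0.05. When TWEAK replicate 2 was left out, 1 of 6 tested rose and 1 fell there, where 6.59% of all tested genes rose and 7.22% fell. TNFRSF12A, which encodes Fn14, rose in SKBR3 from 66.3 ± 5.81 to 85.7 ± 8.76 CPM (0.36 ± 0.09, 0.0322), a call lost without untreated replicate 1 (0.17) or 2 (0.144), and was at 0.17 in MDA-MB-453 (0.129), where it was called higher without TWEAK replicate 2. TNFSF12, the gene of TWEAK itself, had at most 1 read in any library. Overlap of its exons with other genes of the same strand, where counts can be lost, was not examined. The count alone thus does not show that the gene is silent.

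Other partners of B2M did not pass in either line. Of the 8 listed, HFE, FCGRT and MR1 were tested in MDA-MB-453 (-0.04, -0.15 and 0.05) and MR1 alone in SKBR3 (-0.19, edgeR adjusted p = 0.246). No call was made by DESeq2 either, and only MR1 in SKBR3 had an unadjusted p under 0.05. Of 10 class I-like genes that do not need B2M, such as the NKG2D ligands MICA and ULBP1, none rose in either line with all libraries. In SKBR3 6 were tested and 2 fell, where 3.82% of all tested genes fell. PROCR, the endothelial protein C receptor, fell by 0.44 ± 0.11 in SKBR3 (0.0264, and 0.144 without untreated replicate 2) and AZGP1 by 0.29 ± 0.09 (0.0733). The AZGP1 call was lost without any of 5 libraries of the line, with adjusted p up to 0.288, and kept only without TWEAK replicate 2. In MDA-MB-453 0 of 7 were called by edgeR or DESeq2, and 0 had an unadjusted p under 0.05. Without TWEAK replicate 2, AZGP1 alone of the 7 rose there, where 6.59% of all tested genes rose.

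Genes that take class I chains off the surface or out of the endoplasmic reticulum, among them SUSD6, TMEM127, WWP2, MARCHF9 and SYVN1, were not called in either line by edgeR or DESeq2, with 7 of the 8 listed tested. Their log2 fold changes ran from -0.20 to 0.07 in SKBR3 and from -0.12 to 0.03 in MDA-MB-453, and 2 and 1 had an unadjusted p under 0.05. With TWEAK replicate 2 left out, 2 fell in SKBR3 and 1 in MDA-MB-453, where 7.45% and 7.22% of all tested genes fell. Of 13 MHC class II genes only HLA-DQB1 and HLA-DMA were tested, and neither was called by either tool. HLA-DQB1 was at 0.68 in SKBR3 (edgeR adjusted p = 0.142) and 0.51 in MDA-MB-453 (0.495), and HLA-DMA at -0.55 (0.186) and -0.24 (0.744). Both had an unadjusted p under 0.05 in SKBR3, and both were called there without TWEAK replicate 2, 1 higher and 1 lower. At that setting 9.93% of all tested genes rose and 7.45% fell in SKBR3. The class II transactivator CIITA had at most 5 reads in any library. The 9 class I pseudogenes listed had at most 3 reads in every library.

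The chromosomal neighbours of the heavy chains were examined too. Of 42 protein-coding genes without an HLA symbol between the start of HLA-F and the end of MICB, 20 were tested in SKBR3, where 2 rose, PPP1R18 (log2 0.80 ± 0.12, edgeR adjusted p = 0.0017) and TUBB (0.18 ± 0.06, 0.0948), against 6.6% of all tested genes. TUBB kept no call without untreated replicate 1, 2 or 3 or TWEAK replicate 1 or 3 (adjusted p up to 0.333), with no filter (0.147) or with a replicate block (0.217). In MDA-MB-453 0 of 23 were called by edgeR or DESeq2, and 3 had an unadjusted p under 0.05. Leaving out TWEAK replicate 2, 3 rose and 1 fell in SKBR3 and 2 rose and 2 fell in MDA-MB-453, near the shares of all genes at that setting (9.93% and 7.45%, and 6.59% and 7.22%). Medians were -0.02 and 0.03.

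Markers of leukocytes were low apart from CSF1R, a receptor of myeloid cells. The summed level of 13 leukocyte markers ran from 14.1 to 16.8 CPM in untreated SKBR3 and from 16.3 to 17.0 CPM with TWEAK, nearly all of it CSF1R (13.6 ± 1.17 and 15.04 ± 0.263 CPM, edgeR adjusted p = 0.416). In MDA-MB-453 the sum was 0.401 to 0.855 CPM untreated and 0.300 to 0.597 with TWEAK. In each MDA-MB-453 group 10 of the 13 had at most 3 reads in every library, and in SKBR3 6 did untreated and 7 with TWEAK. The pan-leukocyte gene PTPRC had at most 5 reads and the T cell gene CD3D at most 2 in any library. Of 7 stromal and endothelial markers, summing to 23.2 to 25.8 and 24.2 to 26.4 CPM in SKBR3 and to 117 to 123 and 107 to 113 CPM in MDA-MB-453, most was COL1A1. CDH5, the endothelial cadherin, rose in SKBR3 from 1.74 ± 0.166 to 4.21 ± 0.766 CPM (1.26 ± 0.18, 0.000855), while PECAM1 had at most 2 reads. COL1A1 was called lower in MDA-MB-453 when TWEAK replicate 2 was left out. The part of these markers in the results was not tested.

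The genes whose profile over the 12 libraries lay nearest to that of a member, after each line's mean was taken off, were found among 8298 genes with at least 10 CPM on average in both lines. The measure was the root mean square distance in log2 CPM. Nearest to HLA-B were NFKB2 (0.133), MAP3K14 (0.194) and TYMP (0.245), and nearest to B2M were IFIH1 (0.077), FLII (0.093) and JUNB (0.095). HLA-C lay nearest to MCF2L (0.141), TNS3 (0.141) and SRD5A1 (0.152), and HLA-E to TRIM56 (0.042), CLU (0.043) and ACADVL (0.046). The libraries share their group means, so short distances describe similar changes and carry no test.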

How the data were processed

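RNA-seq libraries of SKBR3 and MDA-MB-453, 3 untreated and 3 TWEAK-treated each, were analysed from the deposited count tables. Per the labels and the study's methods, the authors used Trimmomatic against adaptors, STAR to map onto hg38 and featureCounts for the counts per gene. The deposited values are raw counts, whole numbers without normalisation. Versions, the annotation release, strand setting and handling of reads with several matches are not given in the sources used here, and the labels and the methods name different library kits. In these counts none of 264 protein-coding genes whose exonic bases all lie under another gene of the same strand reached a mean of 10, against 4 of 12 under a gene of the opposite strand. Of 62696 identifiers, 62672 matched GENCODE release 44 annotation.

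Each line was fitted on its 6 libraries, and the interaction on all 12, with edgeR 4.0.16 (filterByExpr, TMM, quasi-likelihood test, prior count 0.125) in R 4.3.3, with Benjamini-Hochberg adjustment over all tested genes and the study's threshold of 0.1. Comparisons between lines within a treatment used the libraries of both groups. Levels are CPM with TMM over all 12 libraries, divided where stated by the total exon length of the gene. Alternatives were DESeq2 1.42.0, its size factors, other filters, a threshold of 0.05, a replicate block, all 12 libraries in one fit and leaving out each library. A correction for GC content and length and the canonical transcript length were added after seeing the data. The scripts were tested on simulated data.

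The members and all gene lists were chosen with earlier results of these data known, and 1 regulator of transcription besides the 18 counted is not reported here. Named were all members, list genes called in both lines, up to 3 per list called in 1 line with a mean of at least 1 CPM, and the 3 genes nearest to each of 4 members.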

Additional observations from a re-analysis of the deposited data

Results flagged for a closer look

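The change with TWEAK differed between the lines by the edgeR interaction test (log2, MDA-MB-453 minus SKBR3, adjusted p at most 0.1) for 1 member and 13 other named genes. HLA-C had a difference of -0.998. In the peptide-loading route the values were -1.18 for TAP1, -0.91 for ERAP1, -0.83 for PSMB8, -2.39 for PSMB9, -1.25 for TAPBP and -1.05 for TAPBPL. Among regulators they were 1.30 for RELB, -0.32 for IRF2 and -0.36 for NFKB1. The interferon-gamma receptor genes IFNGR1 and IFNGR2 were at -0.83 and -0.60. AZGP1 was at 0.35 and KRT19 at -0.35. Leaving out single libraries ended the calls of AZGP1 (adjusted p up to 0.172), TAPBPL (up to 0.192), IRF2 (up to 0.205), KRT19 (up to 0.226) and HLA-C (0.125). The IRF2 call also ended with no filter on low counts (0.349) and with the replicate block (0.187), and that of KRT19 with the block (0.138), DESeq2 size factors (0.105) and a minimum of 10 counts (0.104). The causes were not tested.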

How the results depend on the processing

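HLA-B and B2M in both lines, HLA-C in SKBR3 and HLA-F in MDA-MB-453 kept direction and call under every alternative, as did the differences of HLA-B, HLA-C, HLA-E and B2M between the lines. A minimum of 10 counts in every library left no value for HLA-F between the lines. HLA-E in SKBR3 was called with no filter on low counts (0.216), with all 12 libraries in one fit (0.229) and with GC and length correction (0.151), and ranged from 0.171 to 0.288 when single libraries were left out. HLA-E in MDA-MB-453 was called with no filter (0.216) and with the replicate block (0.214), and ranged from 0.165 to 0.265 without single libraries. HLA-C in MDA-MB-453 ranged from 0.241 to 0.343 and its interaction from -1.096 to -0.83. With all 12 libraries in one fit 5 members rose in SKBR3, among them HLA-F (log2 1.54, edgeR adjusted p = 0.0515), which had 0.121 with no filter. HLA-F entered that fit only through its reads in MDA-MB-453, so its value for SKBR3 is a description.

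The interaction of HLA-E, near 0, changed sign with no filter (0.001), with GC and length correction (0.015) and over single libraries left out (-0.066 to 0.054), as did those of HLA-B (-0.08 to 0.213) and B2M (-0.08 to 0.039).

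Genes lower in SKBR3 (main 599) numbered 363 at 0.05, 387 with the replicate block, 1068 in one fit, 1611 with GC and length correction and 240 to 1191 without single libraries, and genes higher there 686 to 1589. In MDA-MB-453 genes higher (main 192) numbered 302 with no filter, 490 with the block and 120 to 1003 without single libraries, and genes lower (main 31) 17 at 0.05, 178 with no filter, 404 with the block, 13 in one fit, 101 with GC and length correction and 10 to 1098. Among the settings that leave out 1 library, the highest count in each line and direction was that without its TWEAK replicate 2. Genes higher by the interaction (main 173) numbered 95 at 0.05, 101 with the block, 465 with GC and length correction and 90 to 505 without single libraries, and genes lower 304 to 645. The labels do not say whether equal replicate numbers pair the samples. The correlation of deviations was -0.09 to 0.07 between same-numbered libraries and -0.10 to 0.15 between the others. With 3 replicates per group these values cannot decide the question. In MDA-MB-453 the order of the replicates was the same in both groups for HLA-B and HLA-C, and not for HLA-E, HLA-F and B2M. Whether the block is a paired analysis is therefore not known.

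With no length, the share of HLA-B was 1.98%, 5.14%, 3.65% and 9.43% in untreated and TWEAK-treated SKBR3 and in untreated and TWEAK-treated MDA-MB-453, that of HLA-E in SKBR3 97.1% and 93.0%, and that of HLA-C in MDA-MB-453 88.1% and 82.9%. By canonical length they were 3.22%, 8.15%, 3.78% and 9.73% for HLA-B, 95.3% and 88.9% for HLA-E and 85.2% for HLA-C with TWEAK. The causes of these shifts were not tested, except that the shares move with the length used. Depth limits HLA-F and HLA-C in SKBR3 and HLA-G in every library.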
